A study of Mus musculus with 3 samples.

Results

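The genes described here encode heterogeneous nuclear ribonucleoproteins (hnRNPs) and core proteins of the spliceosome. They were taken by symbol, 43 genes with 334 annotated transcripts among 55536 annotated genes, and each was matched by its gene identifier to the gene and transcript values of all 3 libraries. By role they comprised 18 hnRNPs, 3 proteins of the U1 snRNP, 7 proteins of the Sm ring, 2 subunits of U2AF, 6 proteins of SF3a and SF3b in the U2 snRNP, 6 proteins of U5 and U4/U6.U5, and the ubiquitin ligase Prpf19. The material was RNA of the chromatin fraction of primary bone marrow-derived macrophages from C57BL/6J mice treated with 100 ng/ml Lipid A, a Toll-like receptor 4 agonist, during 40 min, sequenced as total RNA after removal of ribosomal RNA. Neither age nor sex of the animals was collected according to the labels, and an untreated control was not analysed here. The 3 replicates are separate biosamples that cite 1 donor entry, so p-values measure the spread between these libraries, which may be technical.

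An hnRNP coats nascent RNA and helps decide where it is cut, spliced and exported. The U1 snRNP recognises the 5′ splice site, U2AF the polypyrimidine tract and the AG at the 3′ splice site, and SF3a with SF3b anchors the U2 snRNP at the branch site, before U5 and U4/U6 join and the complex becomes active. Many genes of this machinery are known to make transcripts that keep an intron or carry a premature stop codon, through which several splicing regulators limit their own amount. The annotation labels such transcripts as retained intron (a non-coding isoform that holds intronic sequence), nonsense-mediated decay, or processed transcript (a non-coding isoform without an assigned mechanism).

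Among the 334 transcripts 161 were annotated as protein coding, 109 as retained intron, 31 as nonsense-mediated decay and 33 as processed transcript. A set of 4 introns is shown first, since they are introns of at most 300 bases, with coding sequence on both sides, that were held whole by isoforms of the hnRNPs Hnrnph1, Hnrnph3 and Hnrnpa3 with at least 10% of the gene's transcript TPM. They were read 5′ to 3′ from the transcript sequences of annotation release M21 on assembly mm10, and the capitals mark the first and last pair of bases of the intron.
Hnrnph1-207, chr11:50379624-50379820, strand plus: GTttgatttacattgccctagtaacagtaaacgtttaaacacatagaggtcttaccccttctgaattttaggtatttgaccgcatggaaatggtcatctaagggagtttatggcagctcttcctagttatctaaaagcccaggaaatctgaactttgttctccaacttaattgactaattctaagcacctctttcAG
Hnrnph1-213, chr11:50383740-50383830, strand plus: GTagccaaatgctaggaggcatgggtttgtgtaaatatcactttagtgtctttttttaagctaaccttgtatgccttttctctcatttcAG
Hnrnph3-205, chr10:63015895-63016079, strand minus: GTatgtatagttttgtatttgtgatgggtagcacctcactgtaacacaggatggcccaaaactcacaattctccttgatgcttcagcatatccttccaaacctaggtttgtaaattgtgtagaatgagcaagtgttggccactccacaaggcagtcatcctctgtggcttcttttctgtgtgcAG
Hnrnpa3-205, chr2:75661818-75661895, strand plus: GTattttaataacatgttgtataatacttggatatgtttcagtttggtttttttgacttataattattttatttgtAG
Each of these introns began with GT and ended with AG. So did all 23 distinct coding introns held whole by the members' isoforms of at least 10% that were not annotated as protein coding. Their lengths ran between 78 and 3580 bases with a median of 450, and pyrimidines made up a median of 75% of the 20 bases before the final AG. Whole coding introns were not the rule, however. Over all 109 retained-intron isoforms of the members 26.6% held one, against 30.1% of 15608 such isoforms over all expressed nuclear protein-coding genes.

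For U2af1, Hnrnpl, U2af2 and Snrnp70, the genes called with more TPM in retained-intron than in protein-coding isoforms, windows of 10 exonic and 20 intronic bases are shown around the splice site of a protein-coding isoform that lies inside an exon of the retained-intron isoform, with the intron's first or last pair of bases in capitals.
U2af1-204, donor site, chr17:31654959-31654988, strand minus: ctttagccagGTttgtgtgttgctgggttt
U2af1-206, acceptor site, chr17:31648885-31648914, strand minus: ctgggtgtctttgactgcAGgtgctgtgag
Hnrnpl-206, donor site, chr7:28815343-28815372, strand plus: agtggacaagGTaatcctgatggctacttt
Hnrnpl-205, acceptor site, chr7:28818441-28818470, strand plus: actctgttttcaatctacAGgtgaccctgg
U2af2-207, donor site, chr7:5068174-5068203, strand plus: cattactgagGTactgccctcctcctaccc
Snrnp70-202, donor site, chr7:45387223-45387252, strand minus: catcaaaagaGTaagtgtgtccagctggag
Snrnp70-216, acceptor site, chr7:45380809-45380838, strand minus: ctcccccacatctgttgcAGccgcttacaa
The RNA of U2af1-204, Hnrnpl-206, U2af2-207 and Snrnp70-202 runs from an exon across an unused GT into the intron, and that of U2af1-206, Hnrnpl-205 and Snrnp70-216 runs from the intron across an unused AG into the next exon. In the same genes not every such site held GT or AG. A donor site in Hnrnpl-208 had AT and an acceptor site in Hnrnpl-207 had AC. A donor site had GG in U2af2-206 and GC in Snrnp70-216. Of 53 retained-intron isoforms with at least 10% of a member's transcript TPM, 16 held a whole intron of a protein-coding isoform, 36 held a splice site without the whole intron, and 1 held neither. A median of 48.5% of the bases of these 53 isoforms lay outside the exons of protein-coding isoforms.

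Levels are given as TPM, an abundance corrected for transcript length and sequencing depth, and were set against a reference gene, the library median over 8765 nuclear genes that code for protein and averaged 1 TPM or more. It lay at 7.56, 6.64 and 6.56 TPM in replicates 1, 2 and 3. Total expected counts in the same order were 12699813, 18280033 and 18087091, from 1 µg, 250 ng and 500 ng of RNA. The macrophage label held: all 8 macrophage markers had mean TPM between 18.97 and 208, and all 20 markers of T cells, B cells, neutrophils, erythroid cells and fibroblasts lay below 1 TPM, with 0.37 as the highest mean. Each of those lists summed to between 0 and 1.63 TPM in a library. The nuclear RNAs Malat1 and Neat1 together had 27901, 14805 and 27017 TPM, lowest in replicate 2. In bulk RNA such as this, a smaller number of cells of a type and less RNA per cell cannot be told apart. The strand setting of the counting is not given in the sources used here, and 23 of the 43 genes overlap another annotated gene, 6 of them on the same strand and 19 on the other, so reads of these pairs are uncertain, as are reads shared with near-identical copies of hnRNP and Sm genes elsewhere in the genome.

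The mean level of the members ran between 730 and 0.243 TPM, with hnRNPs, SF3B1, U1-70K and U2AF at the top and small Sm proteins at the bottom. Of the 43, 18 were called over 2-fold higher and 7 over 2-fold lower than the reference gene, by limma's treat test with an adjusted p under 0.05 over all 18387 genes tested, and 18 were neither. Over all genes tested 15.1% were called higher and 52.4% lower. The median level of the members was 0.70 on the log2 scale above the reference gene, against -1.69 over all genes tested. Those include non-coding genes and reach down to a mean of 0.1 TPM. With a minimum mean of 1 TPM the median over genes tested was -0.26. With a reference gene drawn from genes of at least 5 TPM, the median of the members turned to -0.49, against -2.88 over all genes tested, and 12 members were called lower. That reference is higher by construction, and the share of all genes called lower against it is not given. All 43 passed the minimum of 0.1 mean TPM. Leaving out 1 library ended 3 calls: Hnrnpab without replicate 1 (log2 1.29, limma treat, adjusted p = 0.0993) or replicate 3 (log2 1.34, adjusted p = 0.141), Sf3b3 without replicate 3 (log2 1.5, adjusted p = 0.0602) and Sf3a1 without replicate 3 (log2 -1.57, adjusted p = 0.0746). Of the 8765 expressed genes ranked by mean TPM, 2 members stood in the top 1%, 10 in the top 5% and 12 in the top 10%.

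**Figure D1:**
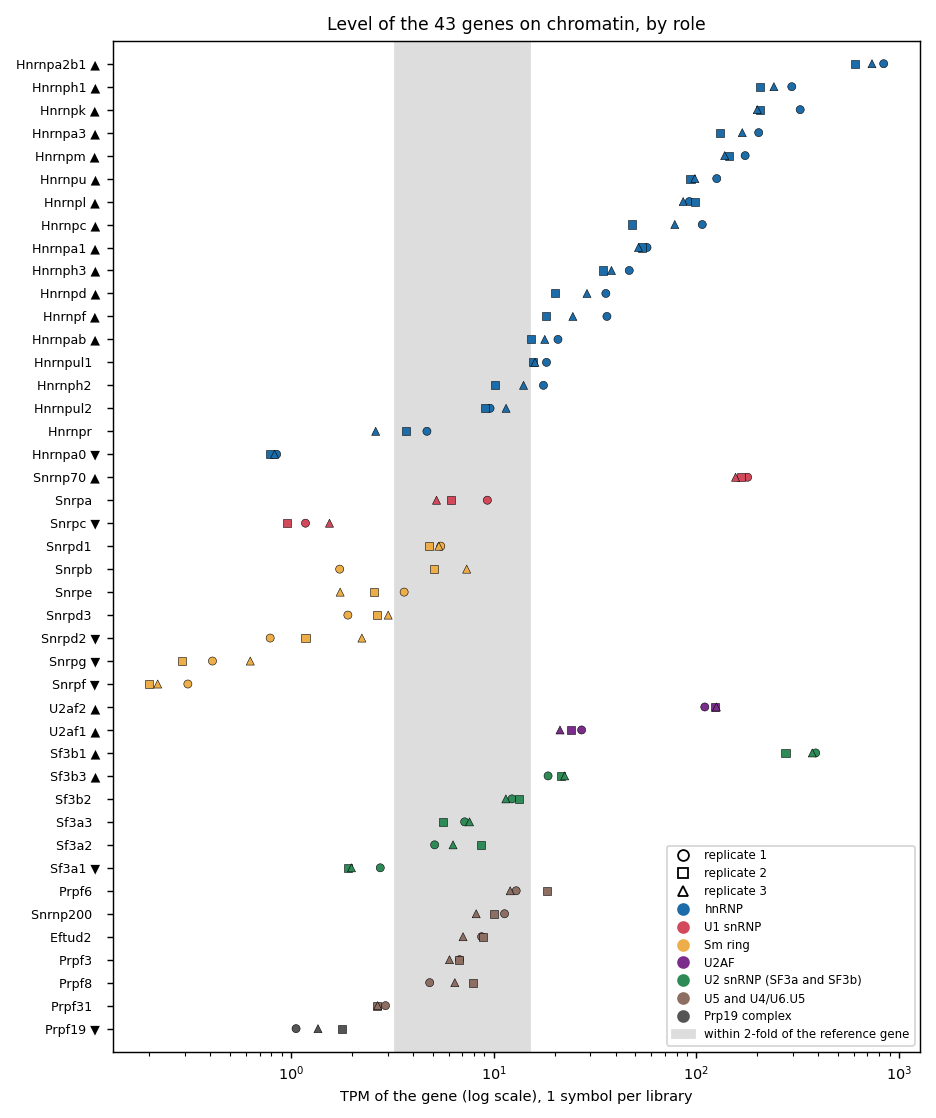
TPM of the 43 genes in each library (x axis, log scale), grouped by role and ordered by mean TPM within each role; 1 symbol per replicate, an upward triangle by the name for a gene called higher than the reference gene and a downward one for a gene called lower. Hnrnpa2b1, Sf3b1, Hnrnph1 and Hnrnpk stand farthest to the right, Snrpf and Snrpg farthest to the left, and the genes of U5 and U4/U6.U5 lie in or next to the grey band.

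The hnRNPs held the highest levels: 13 of 18 were called higher, 1 lower and 4 neither, with a median of the mean TPM of 47.1. Hnrnpa2b1 (chr6:51460932-51469894, minus strand), which binds UAGG-like motifs and guides splicing and RNA transport, had 842, 611 and 737 TPM in replicates 1, 2 and 3. Hnrnph1, a binder of G-rich RNA that regulates alternative splicing, had 296, 207 and 242 TPM, and Hnrnpk, a KH-domain protein that binds C-rich RNA, had 326, 207 and 200.2 TPM. Replicate 1 was highest for all 3 genes, and each value lay far above the reference gene of its library.

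Below them lay Hnrnpa3 at 168 ± 36.2 TPM (SD, n = 3 here and below), Hnrnpm at 153 ± 19.2, Hnrnpu, a nuclear matrix and chromatin-associated protein, at 106 ± 17.6, Hnrnpl, which binds CA repeats, at 92.3 ± 5.99, and Hnrnpc, which binds uridine tracts, at 77.9 ± 29.4. Hnrnpa1, a shuttling repressor of splice sites, Hnrnph3, Hnrnpd, which also controls mRNA decay, Hnrnpf and Hnrnpab completed the genes called higher, between 18.02 and 54.4 TPM. At the low end Hnrnpul2 had 9.61, 9.10 and 11.5 TPM, Hnrnpr 4.69, 3.68 and 2.62 TPM, and Hnrnpa0, a gene with 1 annotated transcript, 0.85, 0.79 and 0.83 TPM. Hnrnpa0 was called lower (log2 -2.92 ± 0.21 SE, limma treat, adjusted p = 0.000391), and its 3 values lay close together, so the distance from Hnrnpa2b1 was far beyond the replicate spread.

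In the U1 and U2 snRNPs 1 gene stood far above its partners. Snrnp70, the U1-70K protein that contacts stem-loop I of U1 snRNA, had 179, 167 and 156 TPM and was called higher (log2 4.58 ± 0.12 SE, limma treat, adjusted p = 3.2e-05). The other U1-specific proteins were far lower in every library: Snrpa, with 9.32, 6.14 and 5.23 TPM, was not called, and Snrpc, with 1.18, 0.96 and 1.55 TPM, was called lower (log2 -2.42 ± 0.23 SE, limma treat, adjusted p = 0.00133).

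In the U2 snRNP, Sf3b1, the largest SF3b subunit, which clamps the branch-site helix, had 389, 276 and 374 TPM and a log2 level of 5.61 ± 0.15 SE (limma treat, adjusted p = 3.2e-05). Sf3b3 averaged 20.8 ± 2.01 TPM and was called higher too. Sf3b2, Sf3a3 and Sf3a2, at 12.4, 6.81 and 6.71 TPM on average, were not called, and Sf3a1, the subunit that contacts U1, had 2.76, 1.91 and 1.99 TPM and was called lower (log2 -1.61 ± 0.17 SE, limma treat, adjusted p = 0.0121). The 6 proteins of this group thus lay between 2.22 and 346 TPM, although they work as 1 particle in the cell, and the order of Sf3b1, Sf3b3 and Sf3a1 was the same in each library.

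Both subunits of U2AF were called higher. U2af2, the large subunit that reads the polypyrimidine tract, had 110, 124 and 126 TPM, and U2af1, the small subunit that reads the AG, had 27.2, 24.1 and 21.3 TPM. Their values did not overlap.

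The Sm proteins, the ring around U1, U2, U4 and U5 snRNAs, had no gene called higher, 3 called lower and 4 neither. Snrpd1 was the highest with 5.49, 4.78 and 5.37 TPM. Snrpd2 had 0.79, 1.18 and 2.24 TPM (log2 -2.34 ± 0.34 SE, limma treat, adjusted p = 0.00807) and Snrpg 0.41, 0.29 and 0.63 TPM (log2 -3.74 ± 0.30 SE, limma treat, adjusted p = 0.000398). Snrpf was the lowest of all members, with 0.31, 0.20 and 0.22 TPM; these rest on 2.82, 2.87 and 2.93 expected counts, under the 3 counts taken as the floor, so it was called lower without a fold.

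Counts behind the lowest Sm genes were few. Snrpg had 3, 4.08 and 8 expected counts and Snrpd2 had 12, 28 and 49, whereas Hnrnpa2b1 had 19136 in replicate 3 alone. Snrpb had 1.74, 5.07 and 7.37 TPM, Snrpd3 1.91, 2.67 and 3.02 TPM, and Snrpe 3.62, 2.58 and 1.75 TPM; none of these 3 was called, and Snrpe was highest in replicate 1, where Snrpb and Snrpd3 were lowest.

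Of the 6 proteins of U5 and U4/U6.U5 none was called in either direction at 2-fold. Their log2 levels ran between -1.30 in Prpf31 (limma treat, adjusted p = 0.0796) and 1.03 in Prpf6. Prpf6, the bridge of the tri-snRNP, was highest with 12.9, 18.3 and 12.1 TPM. Prpf31, which binds U4 snRNA together with Snu13, was lowest with 2.93, 2.66 and 2.68 TPM. Between them lay the helicase Snrnp200 at 9.85 ± 1.57, the GTPase Eftud2 at 8.23 ± 1.01, Prpf3 at 6.54 ± 0.42, and Prpf8, the scaffold of the active site, at 6.40 ± 1.54 TPM. Prpf19, which ubiquitinates proteins of the tri-snRNP, had 1.06, 1.79 and 1.36 TPM and was called lower (log2 -2.25 ± 0.24 SE, limma treat, adjusted p = 0.00282).

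A few genes made up most of the RNA of the group. The members summed to 3241, 2445 and 2755 TPM in replicates 1, 2 and 3, and the 10 genes with the highest mean held 84.5%, 84.2% and 84.5% of it. Level went with the number of annotated isoforms: Spearman's rho was 0.66 over the 43 members and 0.32 over the 8765 expressed genes. Both values describe genes that share the same libraries and are not a test, and a gene's TPM is itself summed over its isoforms. Against gene length the same coefficients were 0.20 and 0.24.

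Other genes of the pathway were taken from 4 lists with 62 genes. Of 14 further RNA-binding proteins of the hnRNP type 11 were called higher and none lower by limma's treat test over all genes tested, led by Hnrnpll, a paralogue of Hnrnpl, with 509, 320 and 390 TPM, and by Ewsr1, a FET protein, with 311, 255 and 229 TPM. Of 14 other proteins at the U2 snRNP and branch site 13 were tested, 5 called higher and 1 lower. The highest was Rbm25, a splicing regulator, with 377, 286 and 298 TPM, and the lowest Sf3b5, the smallest SF3b subunit, with 0.08, 0.11 and 0.03 TPM, which fell under the level minimum.

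Of 16 other U4/U6.U5 and Lsm proteins 1 was called higher and 11 lower, among them Lsm7 with 0.13, 0.94 and 1.04 TPM and Lsm5 with 0.93, 0.60 and 0.81 TPM, both members of the ring that binds U6 snRNA. Of 18 factors of the Prp19 complex and of the catalytic and release steps 3 were called higher and none lower. The shares called over all genes were 15.1% and 52.4%, and the lists were not tested as sets.

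By TPM, most RNA of the group was in isoforms other than protein-coding ones. Summed over the 43 genes, retained-intron isoforms held 47.2 ± 2.96% of the transcript TPM, protein-coding isoforms 38.3 ± 2.20%, processed transcripts 9.34 ± 0.48% and nonsense-mediated decay isoforms 5.19 ± 1.34% (SD over 3 libraries). In 22 of the 43 genes isoforms other than protein-coding ones held over 50%. The leading isoform was a retained-intron one in 16 genes, a protein-coding one in 23, a nonsense-mediated decay one in 2 and a processed transcript in 2. Shares over all genes are not given for the leading isoform. Over the 34 members with a retained-intron isoform the median share of such isoforms was 56.8%, 43.9% and 47.8% in replicates 1, 2 and 3, against 42.97%, 38.9% and 38.8% over all 5828 expressed genes with one. In the alignment-free table the median share was 42.9%, 43.8% and 46.6% over the members, against 43.2%, 40.3% and 41.1% over all genes. By their retained-intron share the members thus lay above all genes in each library of the alignment-based table but not in replicate 1 of the alignment-free one.

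These shares depend on the scale. Many retained-intron isoforms are short, and a short isoform takes a high TPM from few reads: as percent of expected counts, retained-intron isoforms of the 43 genes together held 33.2 ± 3.19% and protein-coding ones 53.2 ± 3.39%. Only annotated transcripts are listed, so intronic reads of unspliced RNA could be assigned only to isoforms that hold that stretch of intron. Its exonic reads could also be assigned to protein-coding isoforms. How much unspliced RNA adds to these shares was not tested.

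**Figure D2:**
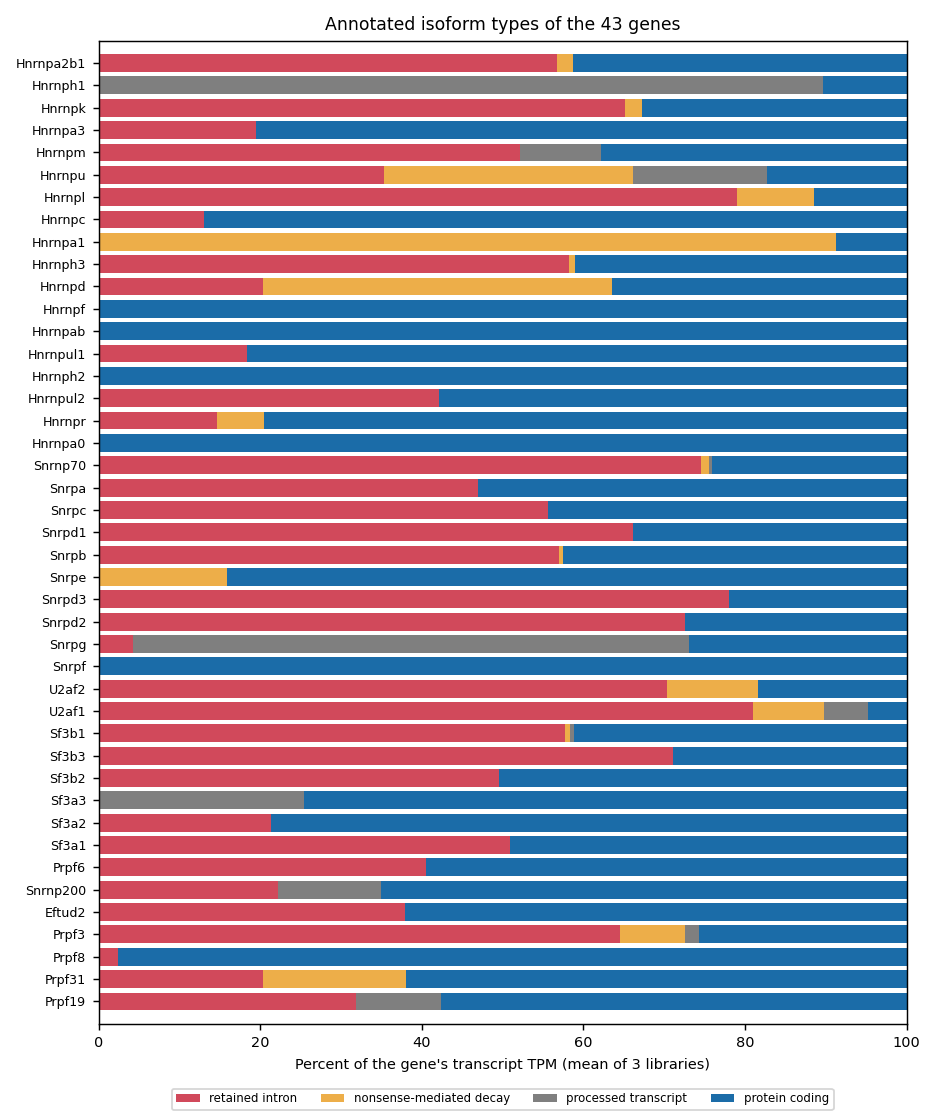
Share of each annotated isoform type in the transcript TPM of the 43 genes (x axis, percent, mean of 3 libraries), with genes in the order of role and level. Retained-intron isoforms fill most of the bar for U2af1, Hnrnpl, Snrpd3, Snrnp70, Snrpd2, Sf3b3 and U2af2, nonsense-mediated decay isoforms for Hnrnpa1, and processed transcripts for Hnrnph1.

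Retained-intron and protein-coding TPM could be compared within 33 members, by limma's treat test with a 2-fold band, adjusted over 5828 genes. Retained-intron isoforms lay above the protein-coding ones in 4 members and below them in 4, against 9.54% and 16.4% of all genes tested. Neither count of members stands clear of its share over all genes. The median log2 ratio was 0.28 over the 33 members and -0.27 over all genes tested.

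The 4 above were both U2AF subunits, Hnrnpl and Snrnp70. U2af1 had 22.5, 19.6 and 16.8 TPM in retained-intron isoforms, against 1.97, 0.45 and 1.07 TPM in protein-coding isoforms (log2 ratio 4.15 ± 0.34 SE, limma treat, adjusted p = 9e-04). Hnrnpl had 77.1, 74.4 and 67.4 TPM in retained-intron isoforms, against 9.59, 11.5 and 10.5 TPM in protein-coding isoforms (log2 ratio 2.78 ± 0.16 SE, limma treat, adjusted p = 0.000508). In both genes the lowest retained-intron value lay far above the highest protein-coding value.

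U2af2 had 84.3, 78.4 and 89.6 TPM in retained-intron isoforms, against 14.4, 30.1 and 22.2 TPM in protein-coding isoforms (log2 ratio 1.98 ± 0.24 SE, limma treat, adjusted p = 0.0173). Snrnp70 had 130, 132 and 113 TPM in retained-intron isoforms, against 49.4, 30.7 and 41.3 TPM in protein-coding isoforms (log2 ratio 1.65 ± 0.20 SE, limma treat, adjusted p = 0.0356). The groups of values did not overlap in either gene. Snrnp70 was the nearest of the 4 to the threshold: its call was lost without replicate 2 (log2 1.42, limma treat, adjusted p = 0.198), without replicate 3 (log2 1.75, adjusted p = 0.07) and in the alignment-free table (log2 1.45, adjusted p = 0.0519).

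Several isoforms stood behind each of these sums, and splice sites of 7 of them are printed above. U2af1-206 and U2af1-204 held 34.8 ± 1.07% and 34.4 ± 2.1% of the gene's transcript TPM, U2af2-207 held 27.9 ± 2.52% and U2af2-206 24.4 ± 3.46%. Hnrnpl was split between Hnrnpl-206 at 24.5 ± 3.09%, Hnrnpl-205 at 21.1 ± 3.3% and Hnrnpl-208 at 18.5 ± 3.46%, and Snrnp70-216 held 20.8 ± 1.46%. No single isoform reached 50% in these 4 genes.

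In the other direction stood Hnrnpc, Hnrnpa3, Hnrnpul1 and Prpf8. Hnrnpc had 13.0, 6.74 and 10.2 TPM in retained-intron isoforms, against 94.1, 41.5 and 68.2 TPM in protein-coding isoforms (log2 ratio -2.73 ± 0.16 SE, limma treat, adjusted p = 0.000508). Hnrnpa3 had a retained-intron share of 19.9%, 19.1% and 19.2%, all of it in Hnrnpa3-205, an isoform of 596 bases that holds the 78-base intron printed above. Hnrnpul1 had a retained-intron share of 22.1%, 13.1% and 19.6%. The retained-intron isoforms of Prpf8 were listed at 0 in replicates 1 and 2 and had 0.47 TPM in replicate 3, so no ratio is given. In the alignment-free table they held 33.9%, 28.4% and 28.5% of the gene's transcript TPM.

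Of the 8 calls, those of Hnrnpul1 (log2 ratio -1.15, limma treat, adjusted p = 0.418) and Prpf8 (log2 ratio -1.18, adjusted p = 0.396) were lost in the alignment-free table along with that of Snrnp70. Without the filter on low levels, which adds genes to the test, the calls of U2af2, Snrnp70, Hnrnpul1 and Prpf8 were lost (limma treat, adjusted p = 0.131, 0.146, 0.0741 and 0.072). U2af1, Hnrnpl, Hnrnpc and Hnrnpa3 kept their calls under both settings.

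**Figure D3:**
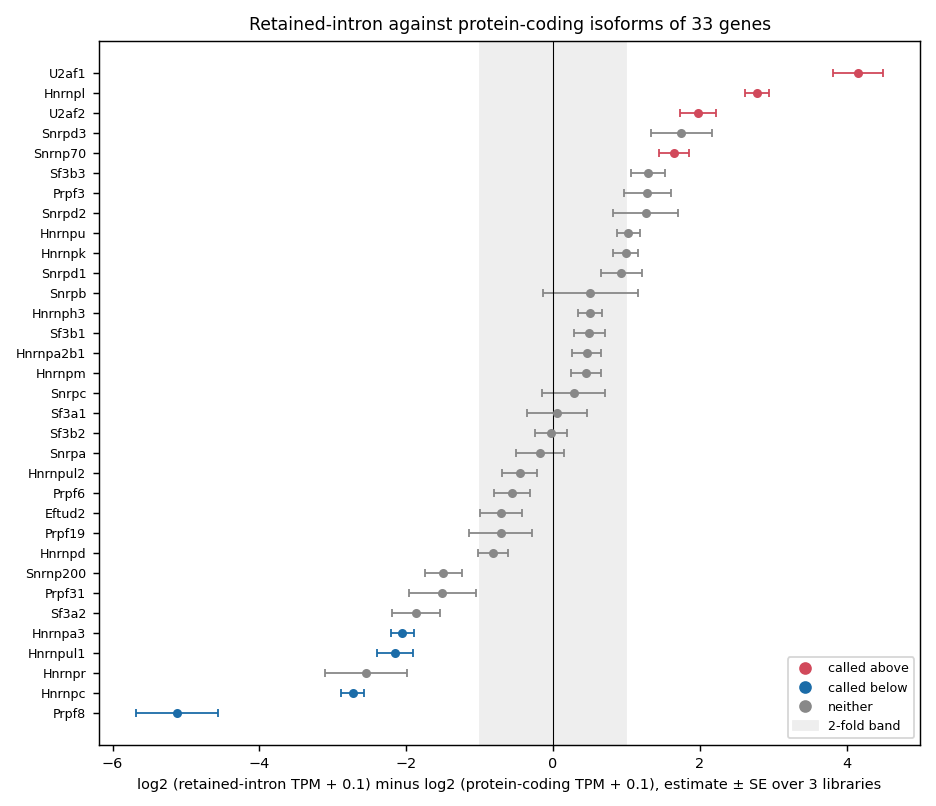
Difference between retained-intron and protein-coding isoforms in each of 33 genes (x axis, log2, estimate with its SE over 3 libraries); red marks genes called above, blue genes called below and grey neither, and the grey band spans 2-fold. U2af1 at 4.15 and Hnrnpl at 2.78 lie farthest to the right, and Hnrnpc at -2.73 and Prpf8 farthest to the left.

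High retained-intron shares were also seen in genes whose ratio was not called. The Sm gene Snrpd3 had 67.0%, 79.0% and 88.1%, Snrpd2 62.5%, 71.2% and 83.9%, and Snrpd1 63.6%, 63.4% and 71.3%. Of higher genes Sf3b3 had 75.3%, 63.4% and 74.4%, Hnrnpk 70.1%, 62.3% and 63.1%, and Prpf3 74.0%, 51.2% and 68.3%. In each of these 6 genes every library was above 50% of TPM. As percent of expected counts Hnrnpk had 44.2%, 33.2% and 35.7%, Snrpd1 39.3%, 35.8% and 45.9%, and Snrpd3 29.7%, 36.0% and 53.0%. On that scale Snrpd2 stayed above 50% in every library, and Sf3b3 and Prpf3 in all but replicate 2, at 46.6% and 40.6%. Snrpd1 rests on 28, 38 and 37 expected counts and Snrpd3 on 27, 56 and 46. The log2 ratio was 0.99 ± 0.17 SE in Hnrnpk, just inside the 2-fold band, and 1.30 ± 0.23 SE in Sf3b3 (limma treat, adjusted p = 0.965 and 0.306). In the alignment-free table the share of Snrpd2 was 13.3%, 27.5% and 36.4% and that of Snrpd1 50.5%, 44.3% and 49.7%, both lower than in the alignment-based table in every library.

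Nonsense-mediated decay isoforms and processed transcripts were concentrated in a few genes. Hnrnpa1 had 49.9, 51.6 and 47.3 TPM in nonsense-mediated decay isoforms, against 7.26, 2.48 and 4.61 TPM in protein-coding isoforms. All of the decay TPM was in Hnrnpa1-203, at 25.99, 36.4 and 27.7 TPM, and Hnrnpa1-204, at 23.9, 15.2 and 19.6 TPM. Hnrnpu-206, another decay isoform, had 27.6, 40.1 and 24.8 TPM, and Hnrnpd-208 had 8.46, 7.36 and 10.03 TPM.

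Hnrnph1 had 273, 179 and 218 TPM in processed transcripts, against 23.5, 27.5 and 23.8 TPM in protein-coding isoforms. Its leading isoform Hnrnph1-204, 4002 bases long with 2 whole coding introns, had 83.3, 39.2 and 64.0 TPM, and Hnrnph1-207 and Hnrnph1-213, whose introns are printed above, averaged 39.8 and 34.2 TPM. The annotation calls these processed transcripts, so they are not in the retained-intron shares of the gene, which are 0.

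All 3 types other than protein coding were also set against the protein-coding one, in a comparison added after the values had been seen. Hnrnpa1, Hnrnph1 and Hnrnpu then joined the 4 genes above, 7 in all, and the same 4 lay below. Over the 7502 genes tested 11.1% lay above and 17% below, and the counts of members were not tested against these shares. The log2 ratio was 3.47 ± 0.31 SE in Hnrnpa1, 3.14 ± 0.21 SE in Hnrnph1 and 2.27 ± 0.19 SE in Hnrnpu (limma treat, adjusted p = 0.0015, 0.000588 and 0.00306). As percent of expected counts, isoforms of the 3 types held 44.1%, 59.7% and 43.1% in Hnrnpu, against 81.1%, 86.7% and 80.2% of TPM. In Hnrnpa1 they held 89.8%, 95.7% and 92.5% of expected counts and in Hnrnph1 91.5%, 84.9% and 90.1%.

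Counting protein-coding isoforms alone, for members and reference gene, changed which genes stood high. This was also added after the values had been seen, and 13 of the 18 genes called higher kept that call. The median level was 0.38 over the members and -1.15 over all genes tested. The shares of all genes called in this comparison are not given, so the counts describe only which members changed. Hnrnpa1, Hnrnpl, Hnrnpd and Sf3b3 were then neither, and U2af1 was called lower (log2 -2.13 ± 0.34 SE, limma treat, adjusted p = 0.0129). Hnrnpul1 and Hnrnph2 joined the genes called higher, and the Sm genes Snrpb, Snrpd1 and Snrpd3 joined the 7 called lower, all of which remained.

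Summed over the 34 members with a retained-intron isoform, retained-intron TPM was 1631, 1087 and 1287 in replicates 1, 2 and 3, and protein-coding TPM was 1045, 891 and 991. Both sums were highest in replicate 1 and lowest in replicate 2. The order differed between the isoform types in 3 of the higher genes, which were chosen after their values were seen. Hnrnpa2b1 had 527, 312 and 414 TPM in retained-intron isoforms, against 298, 282 and 312 TPM in protein-coding isoforms. Sf3b1 had 256, 141 and 210 TPM in retained-intron isoforms, against 129, 131 and 160 TPM in protein-coding isoforms, and Hnrnpm had 102, 59.9 and 78.0 TPM against 59.4, 60.7 and 52.0 TPM in the same order. In all 3 genes the retained-intron sum was highest in replicate 1 and lowest in replicate 2, while the protein-coding sum was not.

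Of 34 members with a retained-intron isoform, the TPM of such isoforms was highest in replicate 1 for 20, in replicate 2 for 5 and in replicate 3 for 9. For protein-coding isoforms of the same genes the counts were 13, 15 and 6. Shares over all genes are not given for these TPM counts. The retained-intron share was highest in replicate 1 for 22 of 34 members and for 53.9% of all expressed genes with such an isoform. Replicate 1 had the fewest counts and the most input RNA. With 1 library per input amount, input, depth and replicate cannot be told apart.

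**Figure D4:**
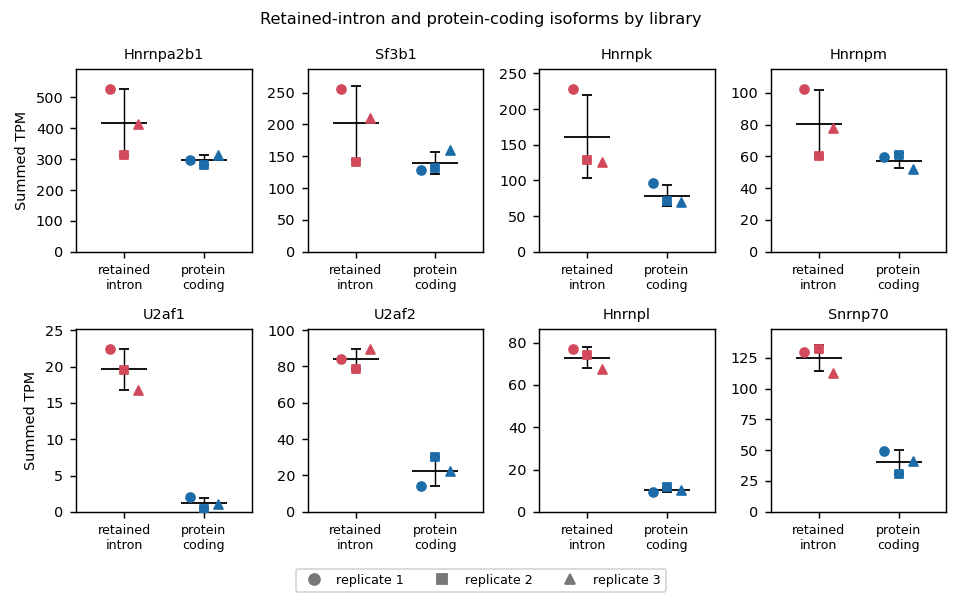
Summed TPM of retained-intron and protein-coding isoforms of 8 genes in each library (1 symbol per replicate, bar at the mean, error bars SD, n = 3). In the upper row replicate 1 lies above the other libraries for retained-intron isoforms, and in the lower row all retained-intron values lie above all protein-coding values.

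By the median, the members varied a little less between replicates than all genes, in a comparison not matched for level. The median SD of log2 CPM (expected counts scaled to library size by TMM) was 0.22 over the 41 members that passed the count filter, against 0.27 over 12931 genes. By role it was 0.13 for the hnRNPs, 0.15 for U1, 0.19 for U2AF and 0.26 for SF3a and SF3b. Above the value of all genes lay U5 and U4/U6.U5 at 0.34, the Sm genes at 0.40 and Prpf19 at 0.51. The spread was smallest in Hnrnpa1 at 0.031 and Snrpd1 at 0.031, and largest in Snrpd2 at 0.78, Snrpb at 0.72, Prpf8 at 0.52, Prpf19 at 0.51 and Prpf6 at 0.43. Of these, Prpf8, with log2 CPM of 5.15, 6.19 and 5.73, and Prpf6, with 5.08, 5.91 and 5.27, were well covered, whereas Snrpd2 had 0.02, 0.77 and 1.58 and Prpf19 1.13, 1.97 and 2.05.

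Snrpb had log2 CPM of 1.03, 2.20 and 2.35, lowest in replicate 1. Its retained-intron isoforms had the same order: Snrpb-204 was listed at 0, 2.40 and 4.67 TPM in replicates 1, 2 and 3, and Snrpb-202 had 0.41, 1.07 and 1.14 TPM. Its protein-coding isoforms had 1.33, 1.6 and 1.44 TPM. In the alignment-free table Snrpb-204 had 2.21, 3.21 and 4.12 TPM.

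The direction of the deviations differed with role. On the CPM scale 11 of 18 hnRNPs were lowest in replicate 2, while 5 of 6 genes of U5 and U4/U6.U5, 5 of 6 of SF3a and SF3b, and 4 of 5 Sm genes were lowest in replicate 1. Relative to the mean of the 3 libraries, the median deviation was 0.05, -0.09 and 0.07 for the hnRNPs in replicates 1, 2 and 3, and -0.28, 0.38 and -0.05 for the U5 and U4/U6.U5 genes. Over all members 23 of 41, or 56.1%, were lowest in replicate 1, against 37.9% of all genes. In replicate 2 these shares were 31.7% and 38.3%. These counts describe 3 libraries and were not tested.

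**Figure D5:**
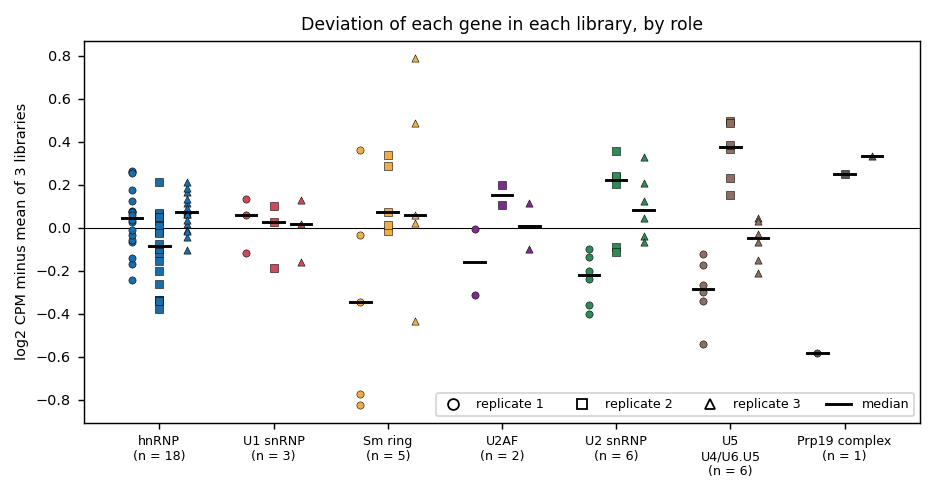
Deviation of log2 CPM from the mean of the 3 libraries (y axis) for the 41 genes that passed the count filter, by role (x axis), with 1 symbol per gene and replicate and a bar at the median. Replicate 1 lies lowest for the genes of U5 and U4/U6.U5, SF3a with SF3b, and most Sm genes, and replicate 2 lies lowest for most hnRNPs.

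The levels were also read from the alignment-free transcript table and set against the alignment-based one, each relative to its own reference gene. By limma's treat test over 28902 genes, 1 member was called higher in the alignment-free table and none lower, against 34.5% and 0.522% of all genes tested. With no 2-fold band, the same model called 29 members higher and 6 lower. The shares over all genes without the band are not given, so these counts cannot be set against 34.5% and 0.522%. The median log2 difference was 0.46 over the members and 1.06 over all genes tested.

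The member called was Prpf19, with 3.17, 4.38 and 4.67 TPM in the alignment-free table, against 1.06, 1.79 and 1.36 TPM in the alignment-based table (log2 1.43 ± 0.12 SE, limma treat, adjusted p = 0.0314). The call was lost without replicate 2 (log2 1.47, limma treat, adjusted p = 0.0976) and without replicate 3 (log2 1.33, adjusted p = 0.18). The other end was Hnrnpa3, with 195, 89.5 and 130 TPM in the alignment-free table, against 203, 131 and 169 TPM in the alignment-based table. For U2af1 the retained-intron share averaged 56.8% in the alignment-free table, against 81.0% in the alignment-based one, and for Hnrnpl 81.1% against 79.1%.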

How the data were processed

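Chromatin-associated RNA was measured by total RNA sequencing in 3 libraries of 1 group. Per the labels and the deposited notes, the authors used assembly mm10 and annotation release M21; no source used here names the programs. The authors deposited expected counts and TPM per gene and per transcript from alignments, and estimated counts and TPM per transcript from an alignment-free method. Expected counts are not whole and were rounded for the CPM steps. Rows of no gene held 1.26%, 0.223% and 0.2% of the counts in replicates 1, 2 and 3 and were left out of tests and scaling. A count of 0 allows up to 2.36e-05%, 1.64e-05% and 1.66e-05% of the total, taken as 3 counts and covering counting error only.

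Levels were log2(TPM + 0.1), which understates differences of low genes, minus the library median of nuclear protein-coding genes with mean TPM of at least 1. Genes with mean TPM of at least 0.1 were tested with limma 3.58.1 (treat, 2-fold band, trended prior variance, two-sided) and Benjamini-Hochberg adjustment over all genes tested at 0.05; in the comparison of tables either table could reach the minimum. Isoform ratios were tested likewise in genes with mean TPM of at least 1. Spread used edgeR 4.0.16 (TMM, filterByExpr with minimum count 10, prior count 2), with DESeq2 1.42.0 size factors as an alternative, in R 4.3.3. The fits were tested on simulated data. Other alternatives changed the pseudocount, filter, band, reference gene, table and libraries. Members and lists were chosen with earlier results of these data known. Named with values in every library were the highest and lowest members of each role, those called lower, the 10 with the highest retained-intron share, the 5 with the largest spread and those that differed between tables; others were chosen after their values were seen. Some items withheld for evaluation are not reported here.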

Additional observations from a re-analysis of the deposited data

How the results depend on the processing

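No paired analysis was possible because the labels give 1 group. The count of members called higher than the reference gene stayed within 1.5 times 18 under each alternative run. The 7 called lower became 4 with a minimum mean TPM of 1, where 3 of them were not tested, 12 without the 2-fold band, 3 with a 4-fold band, 12 with a reference gene from genes of at least 5 TPM, 4 in the alignment-free table and 11 with protein-coding isoforms alone. The median level of the members, 0.70, became -0.49 with the reference gene from at least 5 TPM, which is a higher reference by construction, 1.14 in the alignment-free table and 0.38 with protein-coding isoforms alone. With protein-coding isoforms alone Hnrnpa1 lay at -0.11 and U2af1 at -2.13. Of the 18 members called neither, 13 changed sign under at least 1 alternative.

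Retained-intron isoforms above protein-coding ones, 4 members, became 2 without the filter, 12 without the band, and 7 each in the alignment-free table and with all 3 other types; those below, also 4, became 2 without the filter and 9 without the band. The median retained-intron share, 49.5% of TPM, was 32.9% of expected counts. The 1 member higher in the alignment-free table became 0 with a pseudocount of 1 and 29 without the band, and the 0 lower became 6 without the band. The median SD was 0.223.

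Leaving out 1 library at a time gave 16 to 18 members higher and 6 to 8 lower, medians of 0.67 to 0.76, 3 to 4 with retained-intron isoforms above and 4 to 5 below, 0 to 1 higher and 0 to 0 lower in the alignment-free table, and a median SD of 0.111 (without replicate 2) to 0.199 (without replicate 3). Where not given, the cause was not tested. The lowest Sm genes rest on few counts. For most of these alternatives no share over all genes is given, so their counts describe only how the calls depend on the settings.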
